A study of Mus musculus with 13 samples.

Results

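The potassium, calcium and sodium channel genes were described here as the rows of the count table whose symbols begin with Kcn followed by letters and a digit, with Cacna, Cacnb or Cacng, or with Scn followed by a digit. Kcnj11, Cacna1c, Cacna1d and symbols ending in "os" were left out. This gave 133 of the 55421 rows, of which 130 are annotated as protein-coding. The other 3 rows are the noncoding genes Kcnq1ot1, Kcnmb4os1 and Kcnmb4os2, which the naming pattern also matches. The members were grouped by role into Kv alpha subunits, silent Kv subunits, KCNQ channels, the EAG, ERG and ELK family, Kv auxiliary subunits, calcium- and sodium-activated channels, inward rectifiers, 2-pore-domain channels, and the pore-forming and auxiliary subunits of calcium (Cav) and sodium (Nav) channels.

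The study asked how beta cells that lack the cytosolic thioredoxin reductase Txnrd1 differ from control cells. RNA was sequenced from 13 libraries of sorted mouse islet cells, in 4 groups. Islets of C57BL/6 mice aged 10 to 20 weeks spent a night in culture at 5.5 mM glucose, and dispersed live cells were sorted by the mTmG reporter, whose GFP marks cells in which Cre has acted (taken as beta) and whose tandem Tomato marks the remainder (taken as non-beta). Control mice carried Txnrd1.+/+ and knockout-labelled mice Txnrd1.fl/fl. All 4 groups also carried Ins1.Cre/+, a Cre recombinase inserted at the insulin 1 gene and active in beta cells, and Rosa26.mTmG/mTmG, so the controls share both alleles and the deletion was directed at beta cells only. Control beta had 4 libraries, numbered 1 to 4. Control non-beta had 3 libraries, numbered 2 to 4, and both knockout-labelled fractions had 3 libraries, numbered 1 to 3. The labels do not say whether libraries of a group came from separate animals, so p-values measure the spread between these libraries, which may be in part technical.

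In beta cells, closure of potassium channels that sense ATP depolarises the membrane, voltage-gated calcium channels open, and the calcium that enters triggers insulin release. Voltage-gated, calcium-activated and background potassium channels then repolarise the cell and shape its bursts of action potentials, while sodium channels speed the rise of the action potential in mouse islet cells. Alpha and delta cells use their own sets of these channels, and endothelial, stromal and immune cells of the islet have others.

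Library totals ran from 28687466 to 36775079 counts. Levels are given in CPM, each gene's count scaled to the TMM-adjusted total of its library over all 13 libraries, as mean ± SD, and levels of different genes are compared only in RPKM, which divides CPM by gene length in kilobases. Txnrd1 itself read 295.5 ± 26.74 CPM in control beta and 571.1 ± 16.49 in knockout-labelled beta libraries. The whole-gene count was thus higher, not lower, under the knockout label in the beta fraction. In the non-beta fraction it read 259.1 ± 6.638 CPM in control and 232.1 ± 21.52 in knockout-labelled libraries. This count does not resolve the floxed exons and cannot check the label, so the groups are called knockout-labelled throughout. Markers of the sorted types followed the gates, with summed beta markers at 160800 to 305900 CPM in beta and 6608 to 31620 in non-beta libraries. The non-beta fraction was a mixture in which summed alpha markers reached 148400 to 200700 CPM and summed endothelial markers 762.7 to 1426. Summed markers of pancreatic polypeptide cells stood there at 48000 to 65420 CPM and those of delta cells at 7247 to 15210. Acinar markers summed to 1121 to 5666 CPM, duct markers to 1093 to 2648 and macrophage or leukocyte markers to 548.6 to 849.8. Replicate 3 of both knockout-labelled fractions stood apart. Its beta library had 3767 CPM of summed alpha markers against 451.1 to 837.8 in the other beta libraries, and its non-beta library held the 31620 CPM of beta markers, against at most 11780 elsewhere. In RNA from bulk fractions, fewer cells of a type and less RNA per cell cannot be told apart.

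Most channel genes were silent or scarce. Of the 133 members, 7 had no count in any library (Kcna10, Kcng4, Kcnj16, Kcnk15, Kcns2, Kcnv1 and Scn10a), 62 reached a mean of 2 CPM in a group, 48 reached 5 CPM and 9 reached 50 CPM. Between 79 and 94 members had at least 1 count in a beta library and between 104 and 111 in a non-beta library. The summed level of all members was 978.7 to 1175 CPM in beta and 1157 to 1422 CPM in non-beta libraries. A filter on low counts left 89 members tested in at least 1 comparison, and the other 44 had group means of at most 0.338 CPM. Members that are high in only 1 fraction passed this filter through that fraction.

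Per unit of length, Kcnk16 had the highest mean of the members in every group. In knockout-labelled non-beta libraries it was within its spread of Kcnk3, at 85.9 ± 21.7 and 64.5 ± 17.8 RPKM. Kcnk16 encodes TALK-1, a 2-pore-domain background channel of the pancreas. It read 99.6 ± 4.76 RPKM in control beta and 80.3 ± 4.44 RPKM in control non-beta libraries. In control beta it was followed by Kcnmb2 (24.1 ± 3.04 RPKM), which encodes an inactivating auxiliary subunit of the BK channel, and by Kcnk1 (22.9 ± 1.38 RPKM), which encodes the background channel TWIK-1. The levels of this pair do not differ beyond their spread. Next came Cacnb3, the calcium channel beta3 subunit, at 19.4 ± 1.39 RPKM, Kcnh6, an ERG channel, at 18.6 ± 0.753 RPKM, Kcnip1 at 16.1 ± 0.706 RPKM and Kcnh2, another ERG channel, at 13.9 ± 0.758 RPKM. Cacnb3 and Kcnh6 were also within their spread of each other.

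Control non-beta libraries had a different second place. Kcnk3, which encodes the acid-sensitive background channel TASK-1, read 43.4 ± 6.76 RPKM there and 0.733 ± 0.127 RPKM in control beta. It was within its spread of Kcnk1 at 39.3 ± 3.79 RPKM. Kcnmb2 at 19.4 ± 6.26, Kcnh6 at 16.0 ± 2.04 and Cacnb3 at 15.3 ± 1.15 RPKM followed. These genes are named by rank, after their values were seen. Summed over a family, 2-pore-domain channels had the highest level in both control fractions, at 134 RPKM in beta and 181 RPKM in non-beta libraries. Silent Kv subunits stood at 1.88 RPKM in beta against 0.177 RPKM in non-beta libraries, and Cav gamma subunits at 0.215 against 2.91 RPKM.

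**Figure D1:**
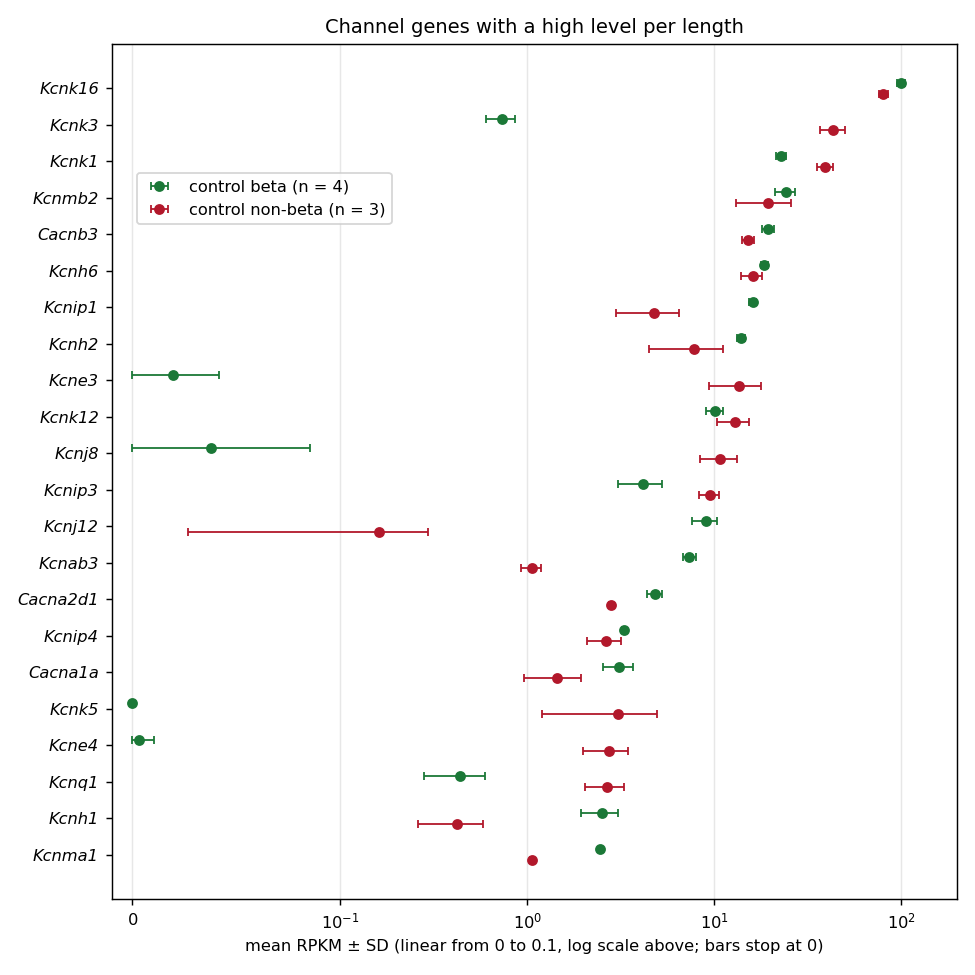
Mean RPKM ± SD of 22 channel genes with a high level in control beta (green, 4 libraries) or control non-beta (red, 3 libraries), on an axis that is linear from 0 to 0.1 and logarithmic above. Kcnk16 leads both fractions at 99.6 and 80.3 RPKM, while Kcnk3, Kcne3, Kcnj8, Kcne4 and Kcnk5 lie far to the left in beta and Kcnj12 far to the left in non-beta libraries.

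The first comparison set control beta against control non-beta libraries. A gene was called when the Benjamini-Hochberg adjusted p of edgeR's quasi-likelihood test, taken over all genes tested, was below 0.05. Of 85 members tested, 24 were called higher in beta and 43 lower, together 78.8%, and for all 67 the libraries of the fractions did not overlap. The background was 53.5% of the 19014 genes tested, with 24.8% higher and 28.6% lower. The share of members higher in beta (28.2%) was thus near the background, and the share lower in beta (50.6%) above it. The median log2 fold change over tested members was -0.61, against -0.02 over all genes tested. With a filter of at least 1 CPM the members lower in beta were 28 of 65 tested (43.1%), against 29.4% of all genes tested. Among the called members 52 differed at least 2-fold (77.6%), as did 50.3% of all genes called, and 95.7% of all genes called did not overlap either.

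Among Kv alpha subunits, which form the voltage-gated pore, 4 of 11 tested were higher in beta and 6 lower. Here and for the families below, 24.8% of all genes tested were higher and 28.6% lower. Each family count rests on few genes. Kcna2, a Kv1 subunit, read 4.95, 1.83, 3.67 and 2.71 CPM in beta against 0.168, 0.469 and 0.539 CPM. All beta libraries exceeded all non-beta libraries, with a log2 fold change of 3.04 ± 0.46 (edgeR adjusted p = 0.000388). Kcna5, another Kv1 subunit, had the opposite distribution. It had 2 counts in all 4 control beta libraries together, a mean of 0.0167 CPM, and 5.73, 5.13 and 6.07 CPM in non-beta libraries (edgeR adjusted p = 2.66e-07).

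The silent subunits form no channel alone and modify the Kv subunits they join. Kcnf1, which encodes the silent subunit Kv5.1, read 7.60, 9.40, 5.88 and 6.32 CPM in control beta and 0.0561, 0.0879 and 0.120 CPM in control non-beta libraries. The difference was 79.1-fold, the largest fitted rise among members with at least 2 CPM in a fraction (log2 6.30 ± 0.34, edgeR adjusted p = 3.98e-07). Kcng3, the other silent subunit that could be tested, stood at 0.655 to 1.13 CPM in control beta and had no count in control non-beta libraries, which puts it at least 32.5-fold higher against 3 counts over that group. The remaining 8 silent subunits were too low to test.

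KCNQ channels carry slow currents that damp firing. Kcnq1, a KCNQ pore, was lower in beta, at 1.79 ± 0.643 against 10.9 ± 2.60 CPM (log2 -2.63 ± 0.27, edgeR adjusted p = 2.79e-05). In the EAG, ERG and ELK family 3 of 7 tested members were higher in beta and 1 lower. Kcnh1, which encodes the EAG1 channel, read 19.0, 13.5, 23.5 and 17.4 CPM in control beta and 2.22, 4.39 and 2.60 CPM in non-beta libraries (log2 2.56 ± 0.27, edgeR adjusted p = 3.74e-05). Kcnh6, the ERG gene with the highest level, was spread over both fractions at 65.9 ± 2.67 and 56.9 ± 7.25 CPM and was not called (log2 0.19 ± 0.10, edgeR adjusted p = 0.142).

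Of 9 tested auxiliary subunits of Kv channels, 2 were higher in beta and 3 lower. Kcnip1, a calcium-binding partner of Kv4 channels, read 103, 96.7, 99.0 and 107 CPM in control beta and 30.2, 41.0 and 18.8 CPM in control non-beta libraries (log2 1.74 ± 0.21, edgeR adjusted p = 9.47e-05). Kcnab3, a cytoplasmic Kv beta subunit, stood at 21.1 ± 1.68 against 3.03 ± 0.360 CPM (log2 2.78 ± 0.14, edgeR adjusted p = 2.84e-07). The membrane-spanning subunits Kcne3 and Kcne4 ran the other way, and so did Kcnip3, a relative of Kcnip1. Kcne3 had 4 counts over the 4 control beta libraries and 26.6, 15.7 and 29.9 CPM in non-beta libraries (log2 -9.37 ± 0.46, edgeR adjusted p = 2.64e-07). Kcne4 had 1 count in control beta and 6.74, 5.57 and 9.45 CPM in non-beta libraries. Kcnip3 stood at 4.15 ± 1.09 RPKM in control beta and 9.45 ± 1.18 RPKM in control non-beta libraries. In each of these genes every library of one fraction lay above every library of the other.

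Of 9 calcium- and sodium-activated potassium channel genes tested, 4 were higher and 3 lower in beta. Kcnma1, the pore of the BK channel, varied little between libraries, with 41.3, 42.5, 41.5 and 40.9 CPM in control beta and 17.6, 18.3 and 18.1 CPM in non-beta libraries. Its level was 2.27-fold higher in beta (log2 1.19 ± 0.08, edgeR adjusted p = 2.03e-06). Kcnn1, which encodes the small-conductance channel SK1, read 3.32 ± 0.699 against 1.36 ± 0.499 CPM (log2 1.27 ± 0.30, edgeR adjusted p = 0.00573). Kcnn4, the intermediate-conductance relative, lay in the non-beta fraction at 4.74 ± 1.28 against 0.527 ± 0.129 CPM. Kcnmb2, the abundant BK auxiliary subunit, was not called between the fractions, at 75.5 ± 9.52 and 60.5 ± 19.6 CPM.

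Inward rectifiers are counted here without Kcnj11, which was left out. Of 9 tested, 8 were higher in non-beta and 1 was lower, where 28.6% and 24.8% of all genes were. Some of the 8 passed the filter only through the non-beta fraction. Summed over the family, the level was 9.97 RPKM in control beta and 16.0 RPKM in control non-beta libraries. The member higher in beta was Kcnj12, which encodes Kir2.2, a strong inward rectifier that holds the resting potential. It read 23.6, 20.6, 25.3 and 29.5 CPM in control beta and 0.0561, 0.791 and 0.479 CPM in control non-beta libraries, 55.2-fold higher in beta (log2 5.79 ± 0.45, edgeR adjusted p = 4.04e-06). Its relative Kcnj2, which encodes Kir2.1, had 1 count in control beta and 5.87, 5.45 and 2.27 CPM in non-beta libraries. Kcnj8 encodes Kir6.1, the vascular counterpart of the beta-cell KATP pore, and read 0, 0.131, 0.254 and 0 CPM in control beta against 29.3, 20.9 and 32.5 CPM (log2 -8.20 ± 0.49, edgeR adjusted p = 7.39e-07). Kcnj3, a subunit of channels opened by G proteins (GIRK), had no count in control beta and 6.71, 6.59 and 3.86 CPM in non-beta libraries, at least 246-fold higher there against 3 counts over the group. Of the exon bases of Kcnj3, 31.1% overlap another annotated gene, so its counts are less certain.

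In the 2-pore-domain family, which carries background potassium current, 5 of 8 tested members were lower in beta and 1 was higher. Over all genes tested 28.6% were lower and 24.8% higher. Kcnk3 read 2.23, 3.37, 3.20 and 2.86 CPM in control beta and 168, 148 and 201 CPM in control non-beta libraries, 60.2-fold higher in non-beta (log2 -5.91 ± 0.16, edgeR adjusted p = 2.6e-08), the smallest adjusted p of any member. Kcnk5, which encodes TASK-2, had no count in control beta and 9.71, 4.51 and 17.2 CPM in non-beta libraries, at least 450-fold higher there against 3 counts over the group. Kcnk1 read 51.2 ± 3.09 in beta and 87.8 ± 8.47 CPM in non-beta libraries (log2 -0.80 ± 0.09, edgeR adjusted p = 4.15e-05). Kcnk16 differed least, at 240, 221, 247 and 239 against 180, 191 and 201 CPM, 1.22-fold higher in beta (edgeR adjusted p = 0.0146). This call was lost in the fit over all 13 libraries (edgeR adjusted p = 0.123), without control beta replicate 1 (0.0506) and without control non-beta replicate 2 (0.0703).

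Among the calcium channel pores other than the L-type genes left out, Cacna1a, which encodes the P/Q-type pore, had the highest level in beta libraries. It read 34.1, 47.7, 32.5 and 39.2 CPM in control beta and 19.2, 11.2 and 23.1 CPM in non-beta libraries (log2 1.08 ± 0.23, edgeR adjusted p = 0.00327). Cacna1b, the N-type pore, was scarcer but also higher in beta, at 2.50 ± 0.374 against 1.38 ± 0.285 CPM (log2 0.84 ± 0.23, edgeR adjusted p = 0.013), a call lost without control non-beta replicate 2 (edgeR adjusted p = 0.0533) and with a replicate block (0.0591). The T-type pores, which open at more negative potentials, were divided. Cacna1h read 0.393, 0.229, 0.472 and 0.395 CPM in control beta and 12.4, 9.11 and 16.0 CPM in non-beta libraries, 33.9-fold higher in non-beta (log2 -5.08 ± 0.28, edgeR adjusted p = 4.6e-07), while Cacna1g overlapped, at 2.23 ± 0.298 and 1.92 ± 0.513 CPM. The R-type pore gene Cacna1e reached at most 0.111 CPM in a group and was not tested.

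The calcium channel auxiliary subunits that support trafficking and gating followed a similar division. Of the alpha2delta subunits, Cacna2d1 was higher in beta at 59.7 ± 5.36 against 34.9 ± 0.915 CPM (log2 0.76 ± 0.10, edgeR adjusted p = 0.000121), and the other 3 were lower. Cacna2d3 read 0.131, 0, 0.109 and 0.122 CPM in control beta and 15.3, 20.0 and 8.26 CPM in non-beta libraries (log2 -7.28 ± 0.48, edgeR adjusted p = 1.4e-06). Of the 4 beta subunits, 3 were higher in beta and none lower, with small differences: Cacnb3 stood at 77.8 ± 5.58 against 61.2 ± 4.62 CPM and Cacnb2 at 21.0 ± 1.04 against 14.2 ± 2.79 CPM. The call of Cacnb3 was lost without control non-beta replicate 2 (edgeR adjusted p = 0.0702) and with a replicate block (0.0593). That of Cacnb4 was lost in 5 of the 7 fits that left out 1 library (edgeR adjusted p up to 0.0888). All 3 tested gamma subunits were lower in beta. Cacng4, the gamma subunit with the highest RPKM in control non-beta libraries, stood at 0.440 ± 0.113 against 5.81 ± 1.83 CPM.

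No sodium channel gene was called higher in beta. Scn3a, which encodes Nav1.3, read 5.40, 5.21, 9.12 and 7.30 CPM in control beta and 22.6, 27.6 and 25.4 CPM in non-beta libraries, 3.79-fold higher in non-beta (log2 -1.92 ± 0.19, edgeR adjusted p = 2.36e-05). Scn9a, which encodes Nav1.7, overlapped between fractions at 14.8 ± 2.61 and 17.1 ± 5.21 CPM, and so did Scn8a, which encodes Nav1.6, at 13.8 ± 1.07 and 12.5 ± 0.600 CPM. Neither was called, with log2 fold changes of -0.22 ± 0.21 and 0.12 ± 0.11. All 3 tested beta subunits were lower in beta cells. Scn3b was at 0.820 ± 0.275 against 10.2 ± 0.563 CPM (log2 -3.65 ± 0.24, edgeR adjusted p = 1.56e-06).

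**Figure D2:**
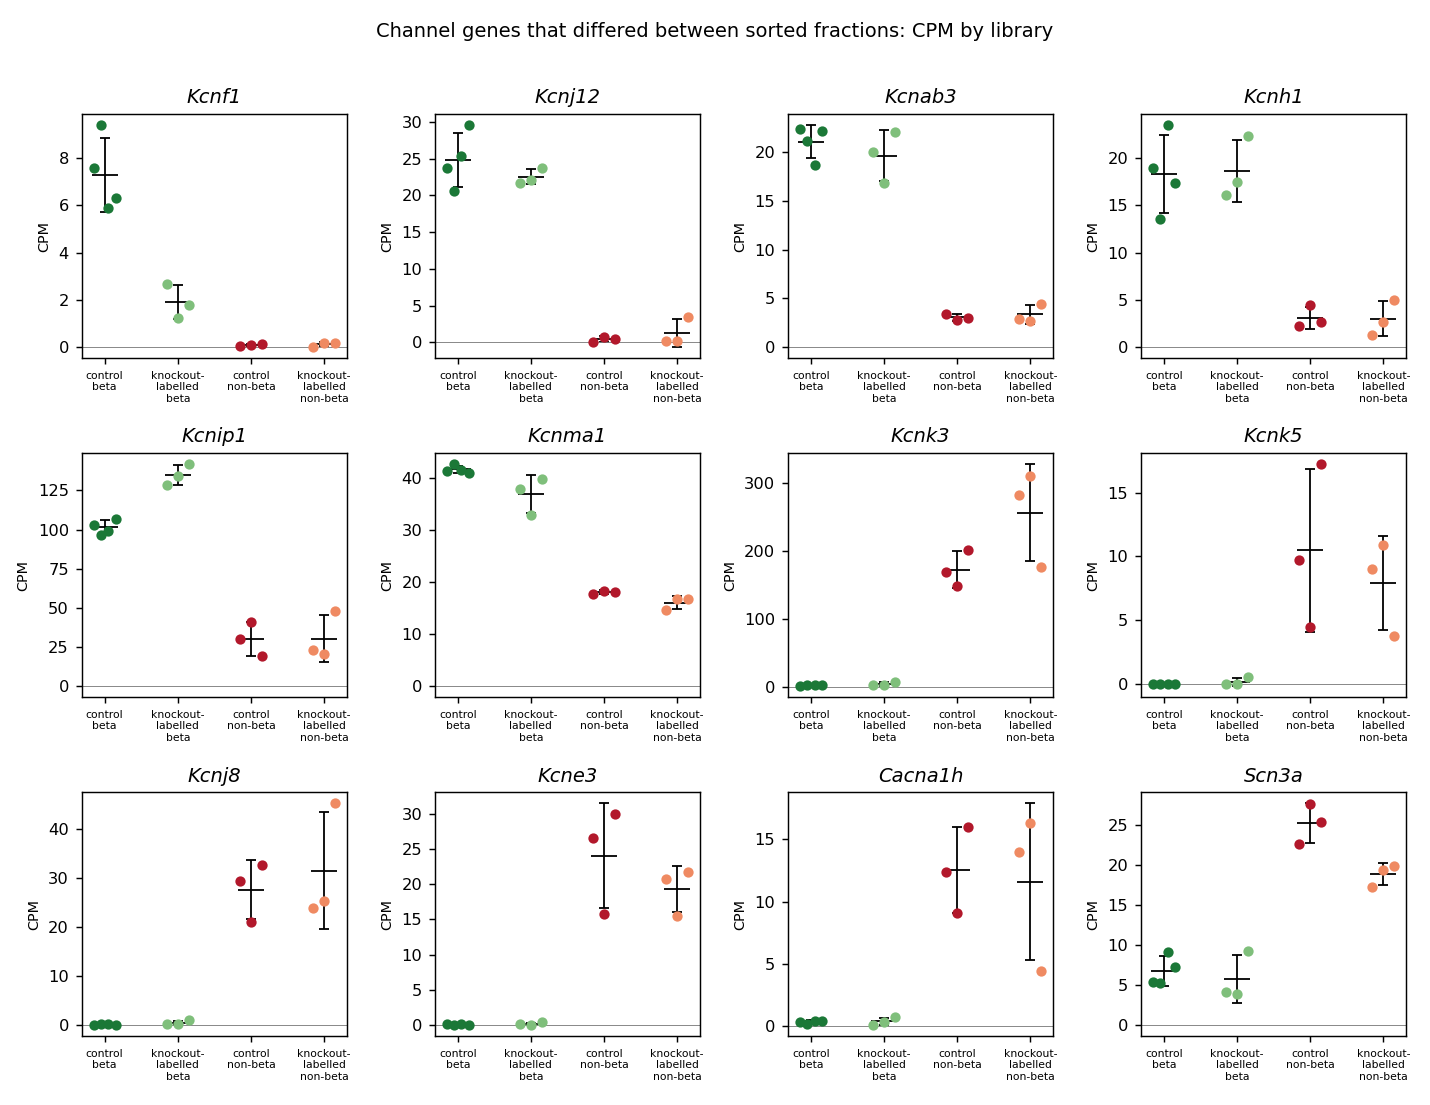
CPM of 12 channel genes in each of the 13 libraries (points), with mean ± SD (bars), for control beta (n = 4), knockout-labelled beta (n = 3), control non-beta (n = 3) and knockout-labelled non-beta libraries (n = 3). Kcnf1, Kcnj12, Kcnab3, Kcnh1, Kcnip1 and Kcnma1 are higher in the beta libraries and Kcnk3, Kcnk5, Kcnj8, Kcne3, Cacna1h and Scn3a in the non-beta libraries of both labels.

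The same division was measured in the knockout-labelled fractions, which share no library with the controls. Of 82 members tested there, 15 were higher in beta and 42 lower, together 69.5%, against a background of 42.6% of 18775 genes, with 19.1% higher and 23.5% lower. Without replicate 3 of both fractions, an alternative added after the data were seen, the counts were 15 and 47. The shares over all genes in that fit are not given here. In both labels 52 members were called in the same direction, 14 higher and 38 lower, which is 77.6% of those called in controls and 91.2% of those called under the knockout label. Over all genes called the shares were 66.4% and 84.4%. None was called in opposite directions. Kcnk3 read 3.39, 2.77 and 8.05 CPM in knockout-labelled beta and 282, 310 and 176 CPM in knockout-labelled non-beta libraries (log2 -5.77 ± 0.46, edgeR adjusted p = 4.67e-05). The lowest Kcnk3 value of the non-beta and the highest of the beta libraries were both those of replicate 3.

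For the genes nearly confined to 1 fraction, replicate 3 moved the fitted difference. Kcnj12 read 0.162, 0.199 and 3.40 CPM in knockout-labelled non-beta libraries 1 to 3, and its log2 fold change was 4.16 ± 0.84 with all libraries (edgeR adjusted p = 0.00427) and 6.89 without replicate 3 of both fractions. Kcnk5 read 0, 0 and 0.530 CPM in knockout-labelled beta libraries, Kcnj3 0, 0.0538 and 0.530 CPM, and Kcne4 0, 0 and 0.371 CPM, each highest in replicate 3. Replicate 3 of the beta fraction also had the highest summed endothelial markers, 18.92 CPM against 0.6851 to 4.395 in the other beta libraries, and summed acinar markers of 35.4 CPM. The part of these cells in the channel values was not tested.

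Calls made under 1 label only were 15 in controls and 5 in the knockout-labelled fractions. Among those of the controls were Cacna1a, Cacna2d1, Cacnb2, Cacnb3, Cacnb4 and Kcnk16, all higher in beta. Cacna1a missed the threshold in the knockout-labelled fractions (log2 0.68 ± 0.25, edgeR adjusted p = 0.0557) and passed it there by DESeq2 (adjusted p = 0.0201), in the fit over all 13 libraries (0.0428), without a filter (0.0228), with a replicate block (0.0481) and without knockout-labelled non-beta replicate 2 (log2 1.01, edgeR adjusted p = 0.00131). None of the 4 Cav beta subunits was called in the knockout-labelled fractions, where the median log2 fold change of this family was 0.03, against 0.43 in controls. The 5 of the knockout-labelled fractions were Cacna1g, Kcnh3, Kcnmb2 and Scn9a, lower in beta, and Kcnip4, higher in beta. The Kcnmb2 call (edgeR adjusted p = 0.0425) was lost in the fit over all 13 libraries (0.0876) and in 4 of the 6 fits that left out 1 library (0.0519 to 0.113). Kcnh3 stood at 1.17 ± 0.413 CPM in beta and 3.27 ± 0.853 in non-beta libraries there (log2 -1.50 ± 0.33, edgeR adjusted p = 0.00654), and at 3.33 ± 0.274 and 4.03 ± 0.842 CPM in the controls. A call under one label alone does not show that the fractions differ more under it, and the test of that difference is given with the interaction.

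**Figure D3:**
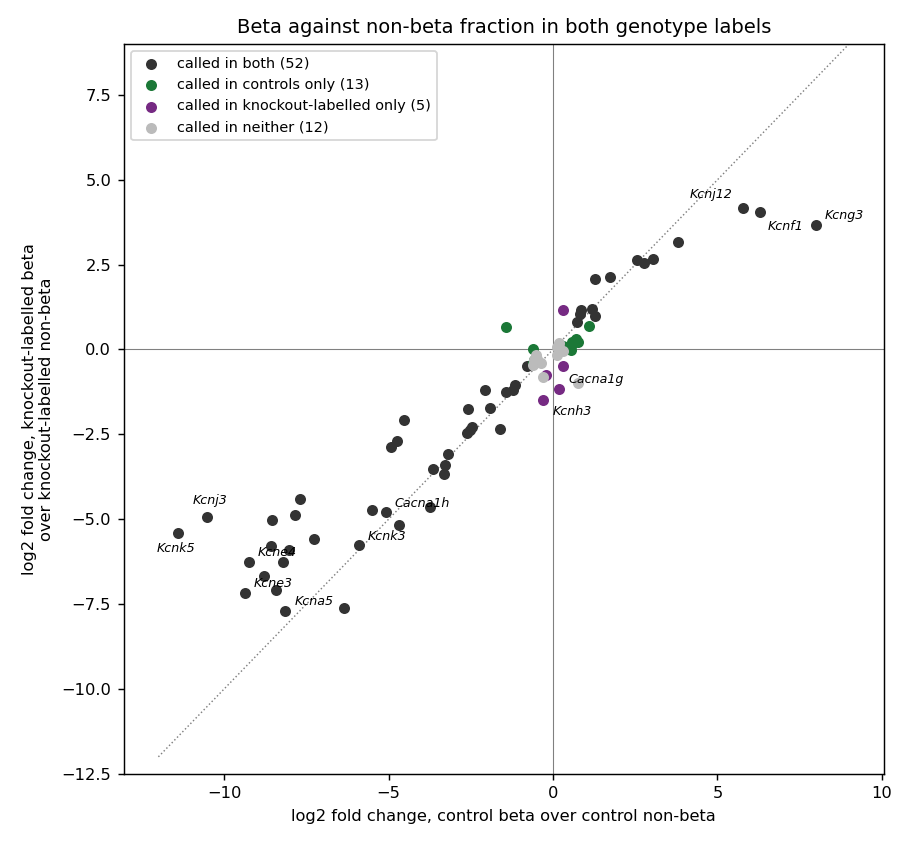
Log2 fold change of beta over non-beta in control libraries (horizontal) and knockout-labelled libraries (vertical) for the 82 channel genes tested in both, with the dotted line marking equal values. The 52 genes called in both lie at the upper right and lower left. Fitted values of genes without a count in control beta, such as Kcnk5 and Kcnj3, depend on the fit's prior count and are no measure of size.

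The knockout label within the beta fraction was the comparison closest to the study's question. Of 60 members tested, 5 were higher and 12 lower in knockout-labelled than in control beta libraries, together 28.3%. The background was 20.1% of 17525 genes, with 10.1% higher and 9.97% lower, so the share of members higher (8.33%) was near it and the share lower (20%) above it. The median log2 fold change over tested members was -0.07, against 0.01 over all genes tested, and 43 of the 60 members moved by less than 0.5 on the log2 scale. For 15 of the 17 called members (88.2%) the libraries of the groups did not overlap, as for 94.1% of all genes called. Leaving out 1 library at a time gave 3 to 7 members higher and 4 to 10 lower, each time fewer lower than the 12 with all libraries. The shares over all genes in these fits are not given here. Whether the share of members lower stayed above the background in them is therefore not shown. Without replicate 3 of the knockout-labelled beta libraries the counts were 7 and 10. Of 8 beta-cell markers, 5 were lower and none higher under the knockout label (median log2 -0.65), and their summed level was 160800 CPM in replicate 3. The part of this in the channel values was not tested.

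Kcnf1 had the largest fall among members with at least 2 CPM. It read 7.60, 9.40, 5.88 and 6.32 CPM in control beta and 2.68, 1.24 and 1.78 CPM in knockout-labelled beta libraries. Every knockout-labelled library lay below every control library, and the level was 3.76-fold lower (log2 -1.91 ± 0.26, edgeR adjusted p = 0.000818). Kcnh3, which encodes an ELK-type voltage-gated channel, read 3.37, 2.95, 3.60 and 3.41 CPM in control beta and 0.913, 0.941 and 1.64 CPM in knockout-labelled beta libraries (log2 -1.46 ± 0.23, edgeR adjusted p = 0.00154). The groups were again apart, with the highest knockout-labelled value in replicate 3, the library with the most alpha-marker RNA.

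Kcnmb2 fell from a much higher level. It read 73.9, 87.0, 77.3 and 63.9 CPM in control beta and 34.3, 40.8 and 45.4 CPM in knockout-labelled beta libraries, 1.83-fold lower (log2 -0.87 ± 0.11, edgeR adjusted p = 0.000581). Kcnma1, the BK pore that Kcnmb2 joins, stood at 41.6 ± 0.693 and 36.8 ± 3.56 CPM and was not called (log2 -0.13 ± 0.08, edgeR adjusted p = 0.268). Cacna1g, the T-type calcium channel pore, read 2.10, 1.96, 2.65 and 2.22 CPM in control beta and 0.816, 1.13 and 1.27 CPM in knockout-labelled beta libraries. The groups did not overlap, and the level was 2.01-fold lower (log2 -1.01 ± 0.22, edgeR adjusted p = 0.0102).

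Kcnip1 and Kcnip4, 2 members of the KChIP family of Kv4 partners, were both higher under the knockout label. Their relatives Kcnip3 and Kcnip2 were not called. Kcnip3 stood at 4.15 ± 1.09 RPKM in control beta and 4.31 ± 2.29 RPKM in knockout-labelled beta libraries, and Kcnip2 at 0.155 ± 0.116 and 0.0849 ± 0.0402 RPKM. Kcnip1 read 103, 96.7, 99.0 and 107 CPM in control beta and 129, 134 and 142 CPM in knockout-labelled beta libraries (log2 0.46 ± 0.06, edgeR adjusted p = 0.000909). Kcnip4 read 12.1, 12.1, 11.6 and 12.3 CPM in control beta and 19.4, 17.8 and 17.9 CPM in knockout-labelled beta libraries (log2 0.66 ± 0.09, edgeR adjusted p = 0.000748). In both genes all knockout-labelled libraries exceeded all controls. In the fit over all 13 libraries the rise of Kcnip1 was of the same size (log2 0.45) and was not called (edgeR adjusted p = 0.296). Kcnd1, the Kv4 pore with the highest level in beta libraries, fell from 8.01 ± 0.920 to 5.65 ± 0.815 CPM (log2 -0.46 ± 0.14, edgeR adjusted p = 0.0356), a call that was lost in 5 of the 7 fits that left out 1 library.

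Kcnj6, which encodes the G protein-gated inward rectifier GIRK2, rose. It read 4.88, 5.24, 4.79 and 3.95 CPM in control beta and 8.58, 7.18 and 8.80 CPM in knockout-labelled beta libraries, without overlap (log2 0.84 ± 0.14, 1.79-fold higher, edgeR adjusted p = 0.00239). In the control fractions it was lower in beta than in non-beta libraries (log2 -0.61 ± 0.17, edgeR adjusted p = 0.0119), and in the knockout-labelled fractions it overlapped, at 8.19 ± 0.877 and 8.04 ± 2.31 CPM. Kcnf1, Kcnh3, Kcnmb2, Cacna1g, Kcnj6, Kcnip4 and Kcnip1 were the 7 members whose call was kept in every fit that left out 1 library. On GRCm38, Kcnf1 lies at chr12:17172100-17176888, Kcnip1 at chr11:33629339-33993152, Cacna1g at chr11:94408391-94474198 and Kcnj6 at chr16:94748636-94997701, all on the minus strand. Kcnmb2 lies at chr3:31902507-32200180 and Kcnh3 at chr15:99224861-99242817 on the plus strand, and Kcnip4 at chr5:48389502-49524907 on the minus strand.

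**Figure D4:**
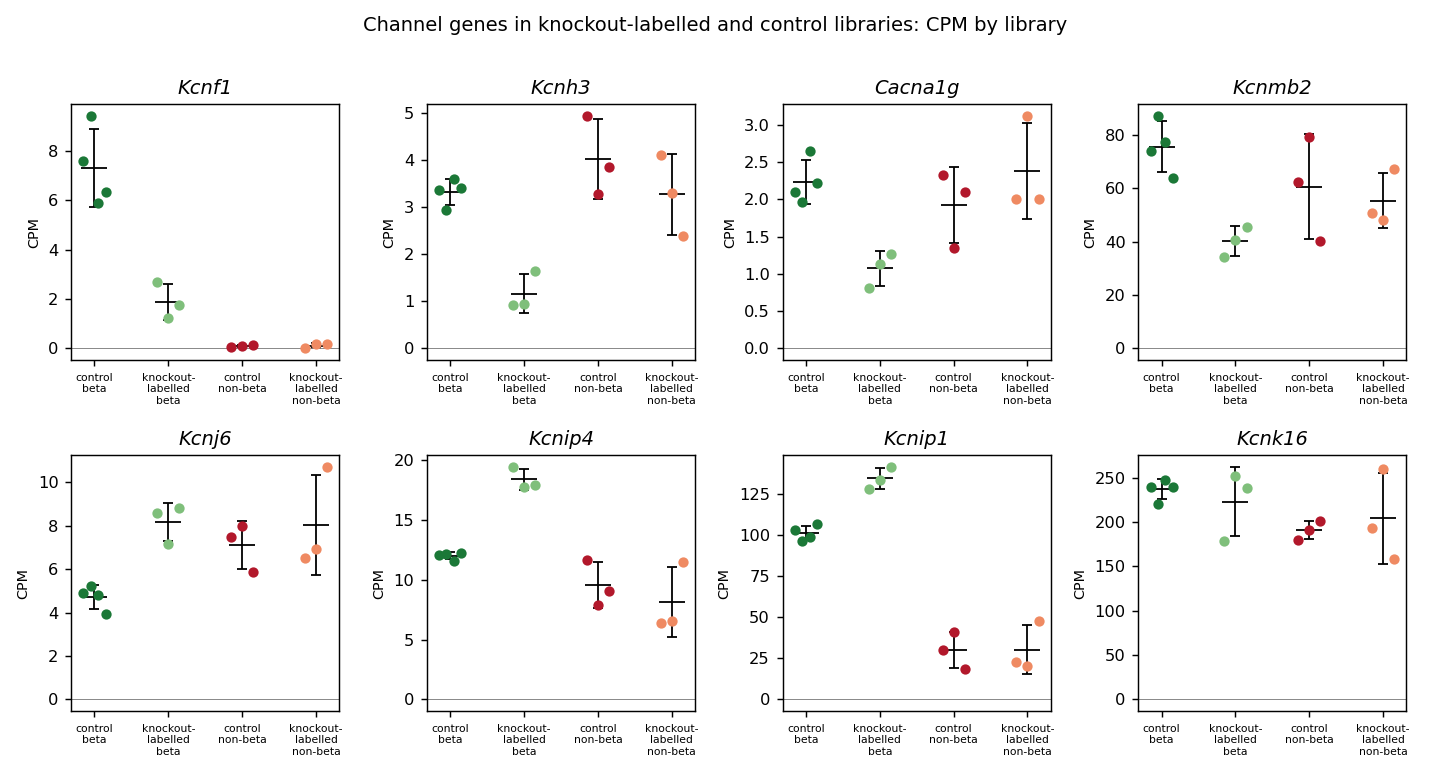
CPM by library (points) with mean ± SD (bars) in the 4 groups for the 7 genes whose call between knockout-labelled and control beta libraries was kept whichever library was left out, and for Kcnk16 as the most abundant member. Kcnf1, Kcnh3, Cacna1g and Kcnmb2 are lower and Kcnj6, Kcnip4 and Kcnip1 higher in knockout-labelled beta, while Kcnk16 overlaps.

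Kcnf1, Kcnip1 and Kcnj6 are shown with the 250 bases before a transcription start, because they include the largest fall and 2 of the rises that were kept when libraries were left out. The sequences are those of RefSeq on GRCm38.p6, 5′ to 3′ on the gene's strand. They were searched on both strands for the MAF recognition core TGCTGAC, for TGACNNNGC, the core of the antioxidant response element bound by NRF2 and MAF factors, and for the E-box CANNTG. TGACNNNGC and TGCTGAC can overlap in the letters TGAC. The MAF recognition core was found in 3.72% of 27025 RefSeq promoters of this length and in 5.1% of the 98 members with an entry, the antioxidant core in 10.1% and 12.2%, and the E-box in 66% and 66.3%. Capitals mark matches to either of the 2 longer motifs.
Kcnf1: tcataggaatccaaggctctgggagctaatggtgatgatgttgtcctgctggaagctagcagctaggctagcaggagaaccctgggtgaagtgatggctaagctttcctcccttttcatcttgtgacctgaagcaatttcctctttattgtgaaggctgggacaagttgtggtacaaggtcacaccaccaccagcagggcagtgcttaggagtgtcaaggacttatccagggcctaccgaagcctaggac
Kcnip1: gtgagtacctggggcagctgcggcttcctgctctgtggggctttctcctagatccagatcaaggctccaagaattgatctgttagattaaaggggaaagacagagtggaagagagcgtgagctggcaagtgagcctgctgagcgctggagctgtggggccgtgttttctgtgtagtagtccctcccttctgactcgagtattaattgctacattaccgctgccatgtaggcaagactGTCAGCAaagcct
Kcnj6: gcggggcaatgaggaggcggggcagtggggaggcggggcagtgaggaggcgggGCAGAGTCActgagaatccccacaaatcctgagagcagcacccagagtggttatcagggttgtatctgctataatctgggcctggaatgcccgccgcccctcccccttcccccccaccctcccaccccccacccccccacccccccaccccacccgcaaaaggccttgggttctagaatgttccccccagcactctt
The Kcnf1 window lies at chr12:17176889-17177138 on the minus strand and holds none of the 3 motifs. The Kcnip1 window lies at chr11:33993194-33993443 on the minus strand, before the most upstream of its listed starts. This window holds 1 MAF recognition core, read here on the opposite strand, and 2 E-boxes, which are not marked. The Kcnj6 window lies at chr16:94856691-94856940 on the minus strand, before the second of its listed starts, and holds 1 antioxidant core on the opposite strand. The windows were chosen after the search: the other 2 listed Kcnip1 starts held no MAF recognition core, the other Kcnj6 start also held 1 antioxidant core, and the windows of Kcnmb2 and Kcnip4 held neither. A match is a string of letters and not a measured binding site.

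The remaining calls of the beta comparison were weaker. Among calcium channel subunits, Cacnb2 read 22.5, 20.7, 20.8 and 20.0 CPM in control beta and 11.2, 17.0 and 15.8 CPM in knockout-labelled beta libraries (log2 -0.47 ± 0.13, edgeR adjusted p = 0.023). Cacna2d1 read 60.5, 65.6, 60.3 and 52.6 against 38.6, 49.3 and 47.3 CPM (log2 -0.36 ± 0.10, edgeR adjusted p = 0.027). Both lay below all controls, and the lowest value of each was in replicate 1. The sodium channel Scn9a read 14.3, 14.2, 18.5 and 12.3 against 7.96, 10.2 and 11.6 CPM, below all controls (log2 -0.54 ± 0.15, edgeR adjusted p = 0.0326).

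Kcnn1, Kcnu1, Kcnc1, Kcng3 and Kcnh5 were also called. All but Kcnn1 were named after their values were seen. Kcnn1 was higher at 4.91 ± 0.532 against 3.32 ± 0.699 CPM (edgeR adjusted p = 0.0452), and Kcnu1, a relative of the BK pore known from mouse sperm, was lower at 5.96 ± 1.09 against 8.34 ± 0.356 CPM (edgeR adjusted p = 0.0442). Kcnc1, Kcng3 and Kcnh5 had under 2 CPM in both groups. Kcnc1, a Kv3 pore, had 29 counts over the control beta and 94 over the knockout-labelled beta libraries, and Kcng3 had 120 and 50. The calls of Cacnb2, Cacna2d1, Scn9a, Kcnd1, Kcnn1, Kcnu1, Kcnc1, Kcng3 and Kcnh5 were each lost when at least 1 of the 7 libraries was left out.

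Several abundant members did not pass the test in the beta fraction. Kcnk16 read 240, 221, 247 and 239 CPM in control beta and 179, 252 and 238 CPM in knockout-labelled beta libraries (log2 -0.04 ± 0.10, edgeR adjusted p = 0.794). Kcnj12 stood at 24.8 ± 3.71 and 22.5 ± 1.02 CPM (log2 -0.09 ± 0.11) and Scn8a at 13.8 ± 1.07 and 14.8 ± 0.232 CPM (log2 0.15 ± 0.10). Kcnk3, a gene of the non-beta fraction, read 2.23, 3.37, 3.20 and 2.86 CPM in control beta and 3.39, 2.77 and 8.05 CPM in knockout-labelled beta libraries (edgeR adjusted p = 0.121). The highest value was in replicate 3, which had the most alpha-cell marker RNA of the beta libraries.

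**Figure D5:**
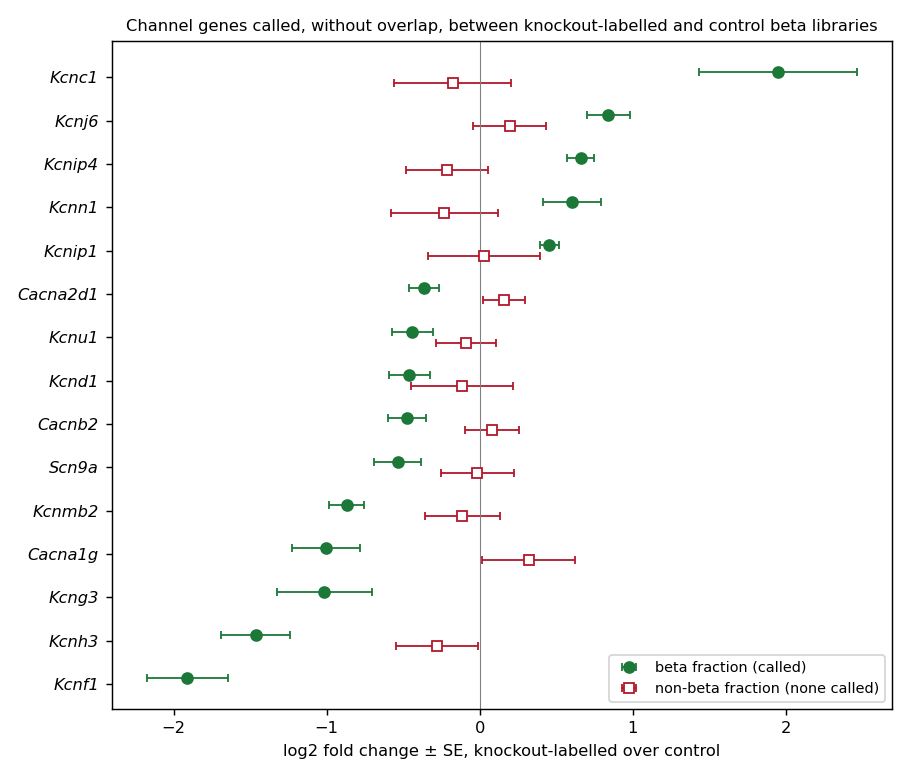
Log2 fold change ± SE of knockout-labelled over control libraries in the beta fraction (filled circles) for the 15 channel genes called there without overlap between groups, with the value in the non-beta fraction (open squares) for the 13 of them tested there. Circles run from -1.91 to 1.95, and no square was called.

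In the non-beta fraction, where the deletion was not directed, none of 85 members tested was called between knockout-labelled and control libraries. The background was 0% of 18908 genes by edgeR, and DESeq2 called none of the members either. At an unadjusted p below 0.05 there were 5 members of 85 and 821 genes in all, and the smallest adjusted p of a member was 0.999. Kcnq1, a KCNQ pore, was at 13.4, 8.23 and 11.2 CPM in control and 6.30, 6.56 and 5.53 CPM in knockout-labelled non-beta libraries, and Scn3a at 22.6, 27.6 and 25.4 against 17.3, 19.4 and 19.9 CPM. Neither gene's groups overlapped, which held for 5 of the 85 members (5.88%) and 9.66% of all genes tested, with log2 fold changes of -0.81 ± 0.21 and -0.40 ± 0.14. Kcnk3 overlapped at 168, 148 and 201 against 282, 310 and 176 CPM (log2 0.59 ± 0.22). Leaving out any 1 library gave no call.

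The difference between the label effects of the fractions was tested as an interaction over all 13 libraries. None of 89 members was called by edgeR, against a background of 0.928% of 19942 genes, with 0.612% higher and 0.316% lower, and 18 members (20.2%) had an unadjusted p below 0.05, as did 2454 of all genes tested (12.3%). The smallest adjusted p was that of Cacna1g (log2 difference -1.32 ± 0.37, edgeR adjusted p = 0.142), whose knockout-labelled non-beta libraries read 2.00, 3.12 and 2.00 CPM against 2.33, 1.35 and 2.09 in control non-beta. Next came Kcnh3 (log2 difference -1.18 ± 0.35, edgeR adjusted p = 0.169), Kcnmb4, a BK auxiliary subunit (2.49 ± 0.75, edgeR adjusted p = 0.169), and Kcnip4 (0.89 ± 0.27, edgeR adjusted p = 0.173). Kcnmb4 was scarce in control beta, at 0.0147 ± 0.00502 RPKM. Of its exon bases, 31.5% overlap the noncoding members Kcnmb4os1 and Kcnmb4os2, so its counts are less certain. DESeq2 called 2 members, Cacna1g (adjusted p = 0.0372) and Kcnh3 (DESeq2 adjusted p = 0.04995). Without replicate 3 of both knockout-labelled fractions edgeR called Kcnh3 (log2 difference -1.67, edgeR adjusted p = 0.0316) and Kcnip4 (1.25, edgeR adjusted p = 0.024), and without replicate 3 of the knockout-labelled non-beta fraction alone it called Kcnip4 (edgeR adjusted p = 0.0151). With all libraries, a difference of the label effect between fractions was therefore not shown for any channel gene by edgeR.

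A list of 57 other genes that act with these channels, from KATP regulatory subunits to calcium pumps and gap junctions, was read alongside. In control fractions 23 of 54 tested were higher in beta and 20 lower, where 24.8% and 28.6% of all genes were. Trpm5, a calcium-activated cation channel, stood at 172 against 5.76 CPM (log2 4.88 ± 0.19, edgeR adjusted p = 8.15e-08), and the calcium pumps Atp2a3 and Atp2a2 at 946 against 131 CPM and 1393 against 232 CPM. Lrrc8c, a subunit of volume-regulated anion channels, lay in the non-beta fraction at 25.7 against 0.371 CPM. In the knockout-labelled fractions 18 of 52 were higher and 17 lower, where 19.1% and 23.5% of all genes were.

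Between knockout-labelled and control beta libraries 2 of 48 tested genes of this list were higher and 11 lower, with a median log2 fold change of -0.13. Over all genes tested 10.1% were higher and 9.97% lower. Camk2b, a calcium-dependent kinase subunit, fell from 358 to 244 CPM (log2 -0.51 ± 0.06, edgeR adjusted p = 0.000493), and Atp2a3, a calcium pump of the endoplasmic reticulum, from 946 to 554 CPM (log2 -0.73 ± 0.10, edgeR adjusted p = 0.000901). Gjd2, the gap junction protein that couples beta cells, fell from 112 to 68.0 CPM (log2 -0.68 ± 0.12, edgeR adjusted p = 0.0028). The libraries of these 3 genes did not overlap between groups. The 2 that rose were Ank2 and Camk2d. None of 54 tested was called in the non-beta fraction or in the interaction.

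In the authors' deposited tables, which list fewer genes, 46 members appear for knockout against control beta cells, and 13 have a false discovery rate below 0.05, 4 higher and 9 lower. All 13 were also called here in the same comparison. For the control fractions the authors' deposited table lists 43 members with 29 below that rate, 27 of them called here. The shares below that rate over all genes of the authors' deposited tables are not given here. Both sets of calls rest on the same libraries, so calls in common are no separate support. For the non-beta label comparison the authors' deposited table lists 57 members and none below that rate.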

How the data were processed

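RNA was sequenced from 13 libraries of sorted islet cells (SMART-Seq ultra low input amplification, paired reads). Per the file headers, the authors deposited whole-number counts per gene with gene names and lengths, and the submitters' processing notes name FastQC, STAR, edgeR and GRCm38.p6. The counting program and its strand setting are not given in the sources used here. The authors also deposited comparison tables with log2 fold changes, p-values and false discovery rates, read only as theirs.

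Each comparison was fitted on its own libraries over all genes kept by filterByExpr, with TMM scaling and edgeR 4.0.16's quasi-likelihood test (R 4.3.3, limma 3.58.1), and called at a Benjamini-Hochberg adjusted p below 0.05. The interaction used all 13 libraries. The CPM and RPKM levels were computed here from the deposited counts. Alternatives were DESeq2 1.42.0, its size factors, other filters, 1 fit over all libraries, a replicate block and leaving out each library.

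The members and lists were chosen with earlier results of these data known. Genes named were the 8 largest rises and 8 largest falls per comparison among called members with a mean of at least 2 CPM, and the highest 1 to 3 members per family by RPKM, 40 in all. Some genes are counted but not reported by name here. Other members given with values (among them Kcnq1, Kcnn4, Kcnip2, Kcnip3, Scn3b, Kcnmb4, Kcnh2, Cacnb4 and Cacna1e) were named after their values were seen. Library totals of 28687466 to 36775079 counts set the precision, and floors of 3 counts cover counting error only. Of the members, 21 share at least 5% of their exon bases with another annotated gene, and without a stated strand setting such counts are uncertain.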

Additional observations from a re-analysis of the deposited data

Results flagged for a closer look

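Among 40 named genes screened, 4 had a control beta library whose gap to the nearest other library exceeded Dixon's critical share of the group's range. Chance gives about 1 in 20 such groups, except where all but 1 library are at 0, since a lone count then always meets the rule. Cacna2d3 read 0 CPM in replicate 2 and 0.109 to 0.131 CPM in the others. Cacng4 read 0.608 CPM in replicate 4 and 0.36 to 0.4 CPM in the others. Kcne4 read 0.0363 CPM in replicate 3 and Kcnj2 0.0327 CPM in replicate 2, each a lone count in a group otherwise at 0. All 4 genes were higher in every non-beta library.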

How the results depend on the processing

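Directions were kept throughout: of the alternative values for named genes, 540 kept direction and call, 32 lost the call and none reversed. With a filter of at least 1 CPM, 28 members were lower in control beta than non-beta libraries, as fewer were tested. Between knockout-labelled and control beta libraries 8 members were higher without a filter, and 3 were higher and 4 lower in the fit over all 13 libraries; the cause was not tested. Leaving out 1 library gave 3 to 7 higher and 4 to 10 lower. The shares over all genes in these fits, in the fit without a filter and in the fit over all 13 libraries are not given. Lower counts of higher and lower calls came without control beta replicate 1 (4 and 6), 2 (3 and 5) or 3 (3 and 4) and without knockout-labelled beta replicate 1 (3 and 5). In the interaction 0 to 1 members were called when 1 library was left out, 2 by DESeq2, and 2 without replicate 3 of both knockout-labelled fractions.

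Replicate numbers are shared across groups, but the labels do not say that they mark an animal, and correlations of same-numbered deviations were 0.0749 to 0.189. A replicate block gave 20 higher and 42 lower in control fractions, 16 and 42 in knockout-labelled fractions, 6 and 8 for the label in beta, 0 and 0 in non-beta and 0 in the interaction. The numbers tested and the shares over all genes in the block fits are not given. Whether the members' shares stayed above the background in them is therefore not shown. In all but 1 of the pairs tested, a library correlated best with its own number. Members under 1 CPM rest on few counts, and their fitted folds are uncertain.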
